A study of Mus musculus with 9 samples.

Results

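The genes described here are 9 members of the intrinsic, or mitochondrial, apoptosis pathway, chosen by symbol: the pore-forming effectors Bax and Bak1, the pro-survival genes Bcl2, Bcl2l1 (Bcl-xL) and Mcl1, the BH3-only genes Bcl2l11 (Bim) and Bbc3 (Puma), and the apoptosome genes Apaf1 and Casp9. All 9 were among the 23319 gene symbols counted in each library, and all 9 passed the filter on low counts that left 10728 genes for testing. Bcl2l11 passed because of the VIP libraries and did not pass when only Nkx2.1 and SOM libraries were fitted.

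In this pathway Bax and Bak1 proteins open the outer membrane of the mitochondrion, and the pro-survival proteins hold them in check. BH3-only proteins relieve that check, and cytochrome c set free from the mitochondrion then joins Apaf1 to activate caspase-9. Many cortical interneurons die in the early postnatal weeks of the mouse, and deletion of Bax is known to keep such cells alive.

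RNA was counted in 9 libraries, each made from 150 green fluorescent cells picked by hand after cortical strips with layer 2/3 from medial prefrontal and anterior cingulate areas had been digested with Pronase E and DNase I. All mice were at postnatal day 5, shortly before the known peak of interneuron death. Nkx2.1 cells, in 3 libraries, were from the line Nkx2.1-CreER;Ai47 with tamoxifen at embryonic day 17, which is known to mark chandelier cells, interneurons that contact the axon initial segment of pyramidal neurons. SOM cells, in 3 libraries, were from SOM-Cre;Ai47 mice, whose Cre follows the somatostatin gene, and VIP cells, in the last 3, from VIP-Cre;Ai47 mice, whose Cre follows the gene of vasoactive intestinal peptide. Every group carried the Ai47 fluorescent reporter, whose cells are set by the Cre driver, and tamoxifen is given for the Nkx2.1 group alone, so line and tamoxifen cannot be told apart. The labels leave unsaid whether replicates are separate animals. The p-values therefore reflect the spread of these samples alone, which may be technical. In such pooled cells, fewer cells that use a gene and less of its RNA per cell cannot be told apart.

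Reads in genes numbered 10850303 to 12465997 in Nkx2.1, 6484488 to 9184008 in SOM and 8071044 to 11439809 in VIP libraries. Levels are CPM, the reads of a gene over those in tested genes, after edgeR's TMM scaling between libraries and set to a common total. A floor of 3 reads is worth 0.248 to 0.447 CPM, depending on the library. The line genes followed the labels: Sst lay at 1456 CPM or more in the 3 SOM libraries and at 36.4 CPM or less elsewhere, and Vip at 413 CPM or more in the 3 VIP libraries and at 3.55 CPM or less elsewhere. Lhx6, of interneurons from the medial ganglionic eminence, lay at 608 CPM or more in every Nkx2.1 and SOM library and Prox1, of interneurons from the caudal eminence, at 371 CPM or more in every VIP library, each below 1 CPM in the remaining groups. Gad1, which makes GABA, had 925 CPM or more and Gad2 183 CPM or more in all 9 libraries, while Nkx2-1 itself was at 1.37 CPM or less throughout. Microglial markers summed to at most 0.915 CPM in Nkx2.1, 18.0 CPM in SOM and 8.74 CPM in VIP libraries, and endothelial and mural markers to at most 0.114, 17.7 and 0.0826 CPM. The microglial marker Cx3cr1 lies in a stretch of chromosome 9 without reads, described below, so its zeros carry no information. The 8 astrocyte markers summed to 255 to 3590 CPM in Nkx2.1, 64.4 to 212 CPM in SOM and 264 to 415 CPM in VIP libraries, and the 7 oligodendrocyte lineage markers to 261 to 304, 97.3 to 196 and 1.73 to 99.1 CPM. The 6 dissociation stress genes summed to 681 to 1390 CPM in Nkx2.1, 111 to 505 CPM in SOM and 35.5 to 387 CPM in VIP libraries, and the 7 excitatory neuron markers to 0 to 117, 1.50 to 9.84 and 3.30 to 157 CPM.

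Message of the pathway was found in all 3 interneuron groups. The effector Bax and the pro-survival gene Bcl2l1 were read in every library and varied less within groups than most tested genes. Both were also among the more abundant, with means above those of 85.9% and 91.2% of tested genes. Most of the other members were present in some libraries and nearly absent from others of the same group. None of the 9 genes passed an adjusted p of 0.05 in any comparison by edgeR's quasi-likelihood test, against 0.0932% of all tested genes for Nkx2.1 against SOM, 0.308% for Nkx2.1 against VIP and 0.0746% for SOM against VIP. The edgeR test of any difference among the 3 groups also called none of the 9, against 0.336% of all tested genes, with 1 of 9 at an unadjusted p under 0.05 against 11.7%, and DESeq2 called 0 of 9 against 8.23%. In the pairwise comparisons, in the same order, the counts at an unadjusted p under 0.05 were 1 of 9, 0 of 9 and 1 of 9, against 11.3%, 15.2% and 6.99% of all tested genes, and each time the gene was Bcl2l11. DESeq2 called 1 of 9 for Nkx2.1 against SOM, 0 of 9 for Nkx2.1 against VIP and 1 of 9 for SOM against VIP, again Bcl2l11, against 8.88%, 13.0% and 4.6% of all genes it tested. The estimate for Nkx2.1 exceeded that for SOM in 8 of 9 genes, with a median log2 difference of 0.97 beside -0.0073 over all tested genes. Against VIP, the SOM estimate was the lower one in 8 of 9 genes, with a median of -0.85 beside -0.0037 over all tested genes. Since both comparisons use the same SOM libraries, these counts are not separate observations. The genes of a comparison come from the same libraries and are not separate observations either. With 1 library left out, the estimates of Apaf1, Bak1, Bcl2 and Bcl2l1 changed sign for Nkx2.1 against SOM. For SOM against VIP that of Bak1 did. For Nkx2.1 against VIP the estimates split 5 higher and 4 lower, with a median of 0.11 beside 0.0028.

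**Figure D1:**
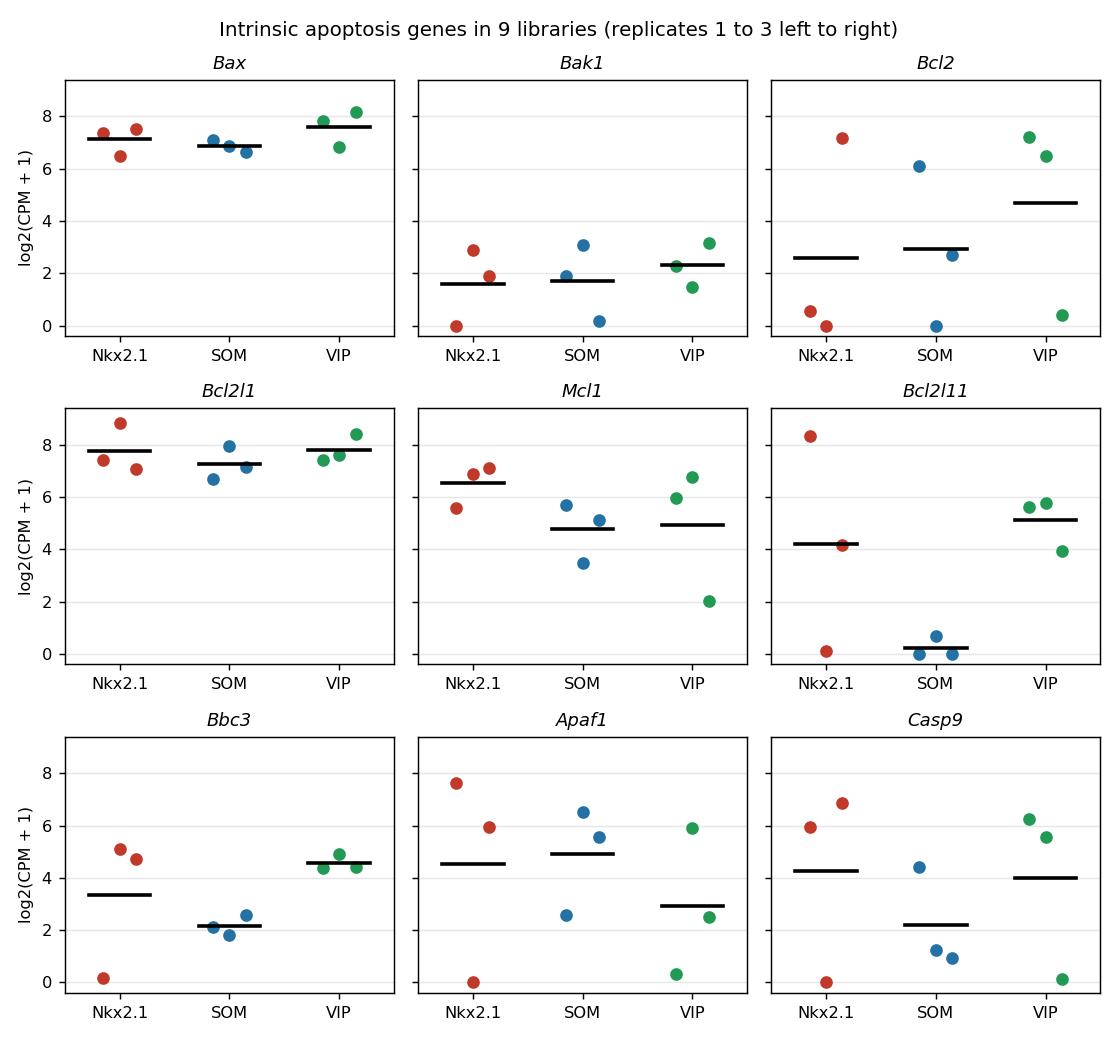
Level of each of the 9 genes as log2(CPM + 1) in each library, with Nkx2.1, SOM and VIP libraries from left to right and replicates 1 to 3 within a group. Points are libraries and bars are group means. Bax and Bcl2l1 vary least within groups, Bcl2, Apaf1 and Casp9 run between high levels and 0 within a group, and Bcl2l11 lies near 0 in the 3 SOM libraries.

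**Figure D2:**
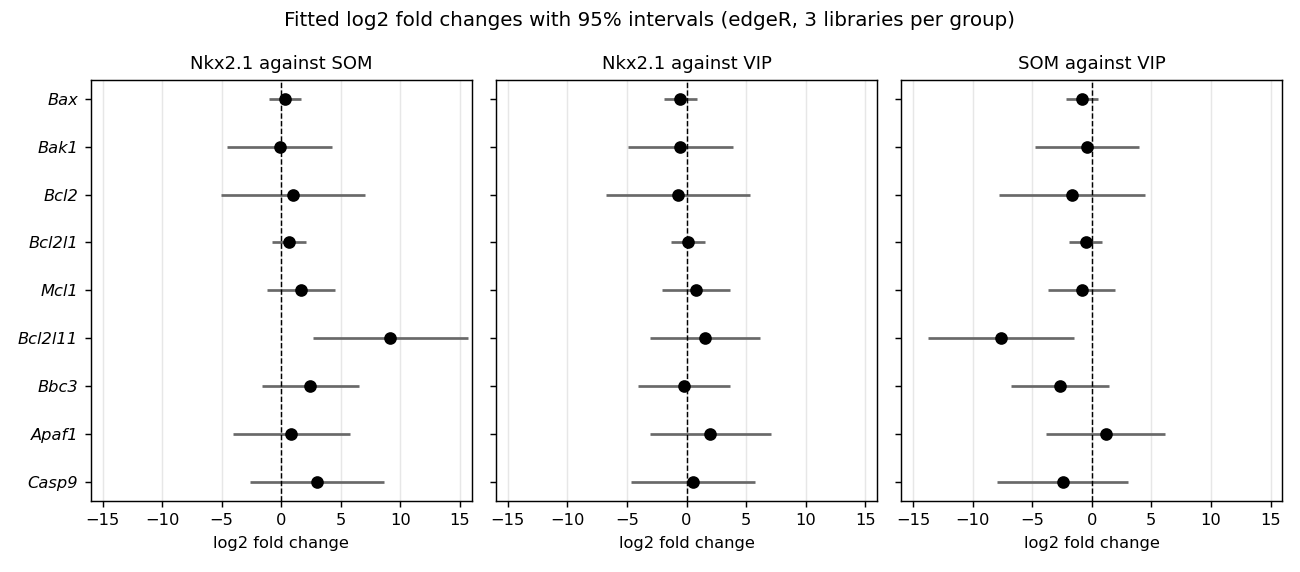
Fitted log2 fold change of each gene with its 95% interval, with a panel for each pair of groups. Positive values are higher in the group named first. The intervals of Bax and Bcl2l1 are narrower than those of the other genes, and those of Bcl2l11 in both comparisons with SOM lie to one side of 0 before any adjustment for the number of genes.

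Of the effectors, Bax was by far the more abundant. Bax, on the minus strand of chromosome 7 at 45461697 to 45466898 (GRCm38), had 164, 87.6 and 184 CPM in Nkx2.1, 137, 114 and 98.2 CPM in SOM and 226, 113 and 285 CPM in VIP libraries. The ranges of all 3 groups overlapped, and the highest value was in a VIP library. Group means were 145 ± 51.0, 116 ± 19.4 and 208 ± 87.3 CPM (SD, n = 3 each). The fitted log2 difference of Bax was 0.32 for Nkx2.1 against SOM (95% interval -1.03 to 1.67), -0.52 for Nkx2.1 against VIP (-1.87 to 0.84) and -0.84 for SOM against VIP (-2.20 to 0.52). On the fold scale these intervals run from 0.488 to 3.19, from 0.273 to 1.79 and from 0.218 to 1.44.

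Bak1, on the minus strand of chromosome 17 at 27019810 to 27029009, was the lowest of the 9 genes. It had 0, 6.48 and 2.75 CPM in Nkx2.1, 2.67, 7.46 and 0.115 CPM in SOM and 3.83, 1.77 and 7.85 CPM in VIP libraries, and the groups overlapped throughout. Nkx2.1 replicate 1 held no Bak1 read and SOM replicate 3 held 1 read. As CPM per kilobase of exon, averaged over the 9 libraries, Bak1 had 1.53 and Bax 181. The log2 difference of Bak1 was -0.15 for Nkx2.1 against SOM, -0.54 for Nkx2.1 against VIP and -0.39 for SOM against VIP, and the 3 intervals together spanned -4.94 to 4.24. Its exons share 256 bases with Ggnbp1 on the other strand, which had 538 reads in all 9 libraries.

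Of the pro-survival genes, Bcl2l1 had at least 947 reads in every library. Bcl2l1, on the minus strand of chromosome 2 at 152780668 to 152831728, encodes Bcl-xL, which binds and restrains Bax and Bak1. It had 169, 458 and 135 CPM in Nkx2.1, 101, 249.5 and 139.9 CPM in SOM and 169.96, 195 and 339 CPM in VIP libraries. The highest value was in Nkx2.1 replicate 2 and the lowest in SOM replicate 1, and the groups overlapped. Means were 254 ± 177, 164 ± 76.9 and 234 ± 91.2 CPM, and the log2 differences were 0.63 for Nkx2.1 against SOM (95% interval -0.78 to 2.04), 0.11 for Nkx2.1 against VIP (-1.29 to 1.52) and -0.52 for SOM against VIP (-1.93 to 0.89). Without a scaling factor between libraries the Nkx2.1 against VIP difference of Bcl2l1 was -0.069.

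Mcl1, on the plus strand of chromosome 3 at 95658788 to 95663176, encodes a short-lived pro-survival protein that neurons need during development. It had 46.3, 117 and 139 CPM in Nkx2.1, 51.4, 10.3 and 33.99 CPM in SOM and 61.1, 109 and 3.06 CPM in VIP libraries. The lowest value was in VIP replicate 3 and the next in SOM replicate 2, and the ranges overlapped in each comparison. The log2 difference of Nkx2.1 against SOM was 1.66 (95% interval -1.22 to 4.54, edgeR adjusted p = 0.788), with means of 101 ± 48.4 and 31.9 ± 20.7 CPM. The VIP mean was 57.6 ± 52.8 CPM.

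Bcl2, the founding pro-survival gene of the family, on the minus strand of chromosome 1 at 106538178 to 106714274, was either high or all but missing. It had 0.458, 0 and 144 CPM in Nkx2.1, 68.2, 0 and 5.42 CPM in SOM and 146, 89.1 and 0.330 CPM in VIP libraries. Each group therefore held a library at 4 reads or fewer beside one above 60 CPM, and the spread of Bcl2 within groups exceeded that of 99.8% of tested genes. The log2 difference of Bcl2 was 0.97 for Nkx2.1 against SOM (95% interval -5.07 to 7.01), -0.70 for Nkx2.1 against VIP (-6.72 to 5.31) and -1.67 for SOM against VIP (-7.82 to 4.47). Without Nkx2.1 replicate 3, the one Nkx2.1 library with more than 4 Bcl2 reads, the difference was -6.70 against SOM and -8.37 against VIP.

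Per length, Bcl2l1 stood below Bax in 8 of the 9 libraries. The ratio of Bcl2l1 to Bax, both as reads per kilobase of exon, was 0.229, 1.17 and 0.164 in Nkx2.1, 0.165, 0.487 and 0.318 in SOM and 0.168, 0.384 and 0.265 in VIP libraries. The ratio per length was above 1 in Nkx2.1 replicate 2 alone, the library with the highest Bcl2l1 and the lowest Bax, and the groups overlapped. Without division by length, Bcl2l1 reads per Bax read were 1.03, 5.23 and 0.733 in Nkx2.1 and 0.740, 2.18 and 1.42 in SOM libraries. In VIP libraries they were 0.751, 1.72 and 1.19. The order of the 2 genes thus depends on the exon lengths used, 3887 bases for Bcl2l1 and 867 for Bax.

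The BH3-only genes are described next. Bcl2l11 and Bbc3 are transcribed when trophic support is lost, and forkhead factors of the FOXO family are known to bind and activate both in other cells. Both genes had every SOM library below every VIP library, 2 of 9 members. Of all tested genes, 9.0% had no overlap in that direction and 19.9% in either direction. The members' count is close to the share in either direction and above the other, and this was not tested. Bcl2l11 passed the filter on low counts because of the VIP libraries, so its place in this count is not free of that filter. No member separated Nkx2.1 from SOM or Nkx2.1 from VIP, where 19.9% and 20.1% of all tested genes did so in either direction.

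Bcl2l11, on the plus strand of chromosome 2 at 128126038 to 128162547, encodes Bim. It had 2814, 1 and 206 reads in Nkx2.1, 0, 4 and 0 reads in SOM and 395, 514 and 175 reads in VIP libraries. In CPM these were 322, 0.0853 and 17.2 in Nkx2.1, 0, 0.597 and 0 in SOM and 48.8, 53.5 and 14.5 in VIP libraries. Message was thus present in all 3 VIP libraries, at 4 reads or fewer in all 3 SOM libraries, and split between libraries in Nkx2.1. The ratio of mean CPM was 569 for Nkx2.1 over SOM and 0.00511 for SOM over VIP, each resting on the 4 reads of the SOM group, all from SOM replicate 2.

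The fitted log2 difference of Bcl2l11 for SOM against VIP was -7.59 (SE 2.76, 95% interval -13.71 to -1.47), with a p of 0.0199 that became 0.534 after Benjamini-Hochberg adjustment in edgeR. DESeq2 gave -7.73 with an adjusted p of 0.0119, so the call for SOM against VIP depends on the test. Bcl2l11 was in the edgeR test because of its VIP reads, so that comparison is not free of the filter on low counts. For Nkx2.1 against SOM edgeR gave 9.13 (SE 2.93, 95% interval 2.62 to 15.63) with an adjusted p of 0.327, and DESeq2 gave 9.23 with an adjusted p of 0.000662. Without Nkx2.1 replicate 1, which held most of the Nkx2.1 reads, the edgeR difference of Nkx2.1 against SOM was 5.39. Without SOM replicate 2 no SOM read is left, and the fitted values, 13.15 for Nkx2.1 against SOM and -11.61 for SOM against VIP, then depend on the fit's prior count. The difference of Nkx2.1 against VIP was 1.54 (95% interval -3.09 to 6.16) and was -2.15 without Nkx2.1 replicate 1. In the test of any difference among the groups the edgeR adjusted p of Bcl2l11 was 0.372, and that of DESeq2 was 0.0769. Nkx2.1 replicate 1 was also the library with the highest sum of astrocyte markers, 3590 CPM, and had the lowest TMM factor, 0.817. Astrocyte markers summed to less in SOM libraries than in VIP libraries without overlap. Of the 8, only Slc1a2 separated these groups by itself, with 5.24, 53.4 and 23.9 CPM in SOM and 375, 216 and 231 CPM in VIP libraries. Gfap and Gja1 were at 0 in all SOM libraries, but in VIP libraries Gfap reached only 0.248 CPM and Gja1 was read in replicate 2 alone. Aldh1l1 had 65.6, 0.149 and 0 CPM in SOM and at most 0.208 CPM in VIP libraries, and its highest value, 159 CPM, was in Nkx2.1 replicate 1. Oligodendrocyte lineage markers summed to 97.3 to 196 CPM in SOM and 1.73 to 99.1 CPM in VIP libraries. The part of such cells in the Bcl2l11 values was not tested.

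Bbc3, on the plus strand of chromosome 7 at 16308393 to 16318205, encodes Puma, a target of p53 in many cell types. It had 0.114, 33.5 and 25.5 CPM in Nkx2.1, 3.32, 2.54 and 4.95 CPM in SOM and 20.02, 29.3 and 20.3 CPM in VIP libraries. The SOM values formed a tight low group of 17 to 43 reads per library, the VIP values a tight higher group of 162 to 282 reads, and Nkx2.1 spanned both. The mean was 3.60 ± 1.23 CPM in SOM and 23.2 ± 5.30 CPM in VIP libraries, a ratio of 0.155, and 19.7 ± 17.4 CPM in Nkx2.1 libraries. The fitted log2 difference of Bbc3 for SOM against VIP was -2.68 (SE 1.86, 95% interval -6.81 to 1.44), with a p of 0.178 that became 1.00 when adjusted in edgeR. DESeq2 gave a p of 0.0446 and an adjusted p of 0.377. For Nkx2.1 against SOM the difference was 2.45 (95% interval -1.64 to 6.53), and for Nkx2.1 against VIP it was -0.24 (-4.11 to 3.64).

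RefSeq promoter windows, from 250 bases before to 50 bases after a transcript start, were found for all 9 genes, 14 windows in all. The forkhead core GTAAACA or its reverse TGTTTAC stood in a window of 2 of the 9 genes, Bcl2l11 and Bbc3, against 4.05% of 27025 genes. Counted by window, against 3.65% of 32851 windows, it stood in 2 of the 14. These windows are shown because they hold the core. The capitals mark the forkhead core, 227 bases before the start on the plus strand for Bcl2l11 and 167 bases before the start on the minus strand for Bbc3. The windows are chr2:128125788-128126087 and chr7:16310011-16310310, both on the plus strand of GRCm38.p6, and the second is that of an alternative start.
Bcl2l11: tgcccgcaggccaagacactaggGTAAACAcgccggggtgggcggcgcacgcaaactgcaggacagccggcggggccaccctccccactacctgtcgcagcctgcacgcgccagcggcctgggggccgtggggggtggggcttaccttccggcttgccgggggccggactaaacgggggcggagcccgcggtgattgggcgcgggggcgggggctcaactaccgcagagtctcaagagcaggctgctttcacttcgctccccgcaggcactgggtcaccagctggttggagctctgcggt
Bbc3: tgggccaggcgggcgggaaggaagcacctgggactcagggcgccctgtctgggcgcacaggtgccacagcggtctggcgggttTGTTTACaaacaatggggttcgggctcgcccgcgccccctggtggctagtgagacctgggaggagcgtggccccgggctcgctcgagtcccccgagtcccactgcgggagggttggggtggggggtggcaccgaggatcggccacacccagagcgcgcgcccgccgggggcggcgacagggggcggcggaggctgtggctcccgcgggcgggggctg
A match of letters is a description and not evidence of binding. Of the other motifs searched on both strands, the GC box GGGCGG was in 7 of 9 genes against 38.2% of all genes, CCAAT in 2 of 9 (the same Bcl2l11 and Bbc3) against 41.1%, the E-box CACGTG in 2 of 9 (Bax and Bbc3) against 8.09%, and TATAAA in 0 of 9 against 15.7%. The windows of the 9 genes had a GC content of 49.3% to 78.0%, beside a median of 52.7% over all windows. The 3 windows of Bcl2l1 had the lowest GC contents, between 49.3% and 55.7%.

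Among FOXO genes, named after their values were seen, Foxo3 had 69.0, 0 and 0.501 CPM in Nkx2.1, no read in any SOM library and 21.3, 0 and 24.4 CPM in VIP libraries. Foxo1 had 194, 150.3 and 0.334 CPM in Nkx2.1, 9.62, 0.149 and 27.0 CPM in SOM and 26.5, 0.104 and 0 CPM in VIP libraries. Neither passed the edgeR test in any comparison.

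The apoptosome genes, Apaf1 and Casp9, each had a library above 20 CPM and one at 5.03 CPM or less in every group. Apaf1, on the minus strand of chromosome 10 at 90989311 to 91082770, encodes the scaffold on which caspase-9 is activated. It had 197, 0 and 60.4 CPM in Nkx2.1, 5.03, 91.4 and 46.4 CPM in SOM and 0.247, 59.3 and 4.63 CPM in VIP libraries. High and low libraries stood side by side in each group, and the groups overlapped. Apaf1 was the only member with a higher point estimate in SOM than in VIP, a log2 difference of 1.15 (95% interval -3.80 to 6.11). The difference was 0.85 for Nkx2.1 against SOM (-4.08 to 5.77) and 2.00 for Nkx2.1 against VIP (-3.07 to 7.08). With 1 library left out, the difference ran from 0.26 to 4.30 for SOM against VIP and from 0.52 to 5.20 for Nkx2.1 against VIP, with both highest values without VIP replicate 2, and the lowest without SOM replicate 2 for SOM against VIP and without Nkx2.1 replicate 1 for Nkx2.1 against VIP.

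Casp9, on the plus strand of chromosome 4 at 141793612 to 141815976, encodes the initiator caspase of the pathway. It had 60.6, 0 and 117 CPM in Nkx2.1, 20.1, 1.34 and 0.922 CPM in SOM and 75.8, 46.6 and 0.0826 CPM in VIP libraries. At least 1 library of each group lay near 0 and at least 1 above 20 CPM, and the groups overlapped. Means were 59.2 ± 58.4, 7.46 ± 10.96 and 40.8 ± 38.2 CPM. The log2 difference was 2.98 for Nkx2.1 against SOM (95% interval -2.62 to 8.59) and -2.45 for SOM against VIP (-7.93 to 3.04). The exons of Casp9 share 94 bases with Cela2a on the other strand, which had 1149 reads over all libraries, and with no strand setting given such reads may not be separable. Bcl2 likewise shares 558 exon bases with the antisense gene D630008O14Rik, and Bax 192 bases with Gm45808 on its own strand, neither of which has counts of its own here.

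The 9 genes differed widely in level and in how evenly they were read. Over the 9 libraries, CPM per kilobase of exon averaged 181 for Bax, 55.9 for Bcl2l1, 18.5 for Mcl1, 9.19 for Casp9, 8.55 for Bbc3, 7.36 for Bcl2l11, 6.24 for Apaf1, 5.50 for Bcl2 and 1.53 for Bak1. Bax and Bcl2l1 had an SD within groups of 0.54 and 0.73 on the log2(CPM + 1) scale, a value that only 7.62% and 14.8% of tested genes fell below, while the median tested gene had 1.68. Mcl1 matched that median with 1.68, and Bbc3 and Bak1 had 1.62 and 1.30. Bcl2l11 had 2.45, Apaf1 3.07, Casp9 3.11 and Bcl2 3.62. The percentages for Bax and Bcl2l1 are over tested genes of all levels, and none was taken among genes of like level. Mean CPM was 50.4 for Bcl2, 51.6 for Apaf1, 50.7 for Bcl2l11 and 35.8 for Casp9, where the median tested gene averaged 42.8 CPM.

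**Figure D3:**
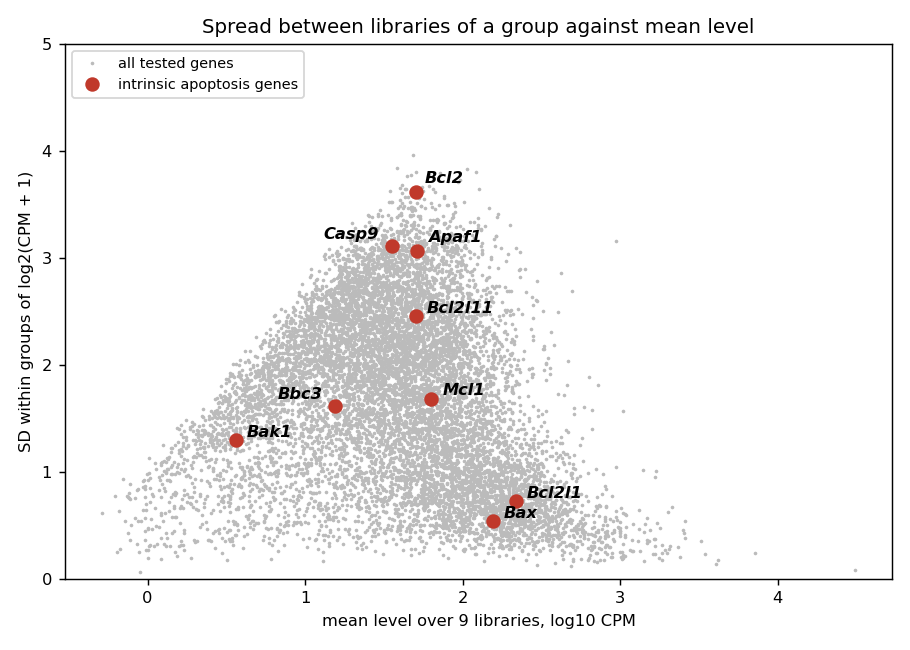
SD of log2(CPM + 1) within groups against the mean level over the 9 libraries, in log10 CPM, for all 10728 tested genes (grey) and the 9 members (red). Bax and Bcl2l1 sit at the low edge, and Bcl2, Apaf1 and Casp9 near the top of the cloud, at mean levels close to those of Bcl2l11 and Mcl1.

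Only Bax, Bcl2l1 and Mcl1, 3 of 9 members, had more than 3 reads in all 9 libraries, where 43.9% of all tested genes did. Of the 4797 tested genes with a mean of at least 50 CPM, 74.6% did. Nkx2.1 replicates 1 to 3 had 2, 4 and 0 members at 3 reads or fewer, the SOM replicates 1, 1 and 2, and the VIP replicates 1, 0 and 1. Of all tested genes, 18.0%, 34.8% and 23.2% were at 3 reads or fewer in Nkx2.1, 11.6%, 9.44% and 7.62% in SOM and 24.0%, 11.4% and 11.8% in VIP libraries. Nkx2.1 replicate 2, the deepest library, thus had the most missing members and the most missing genes, with Bcl2, Apaf1 and Casp9 at 0 and Bcl2l11 at 1 read. The same library held 5368 Bcl2l1 reads, the highest count of any member in any library. Of 9 libraries, 7 had at least 1 member at 3 reads or fewer.

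The genes whose pattern over the 9 libraries was most like that of Bcl2l1, the member with the highest mean CPM, were Tusc3, Cttn and Ctsa. Their centred log2(CPM + 1) values differed from those of Bcl2l1 by 0.28, 0.29 and 0.30 on average, where the median over all tested genes was 1.59. Cttn had 152, 411 and 204 CPM in Nkx2.1, 108, 223 and 201 CPM in SOM and 175, 299.7 and 308 CPM in VIP libraries, with the highest value in Nkx2.1 replicate 2 as for Bcl2l1, whereas Tusc3 was highest in Nkx2.1 replicate 1, at 366 CPM, and Ctsa in VIP replicate 3, at 139.5 CPM. All 3 genes were lowest in SOM replicate 1, as was Bcl2l1.

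Around these genes, 80 further genes of 6 lists were examined: other BCL-2 family genes, factors acting downstream of the mitochondrion, p53, JNK and FOXO inputs, survival kinases and phosphatases, death receptor genes, and outer membrane pores and mitochondrial dynamics. Of the 80, 59 were tested, and none passed an adjusted p of 0.05 in edgeR in any comparison, in either direction. At an unadjusted p under 0.05 there were 5 of 59 in each of the 3 comparisons, where all tested genes gave 11.3% for Nkx2.1 against SOM, 15.2% for Nkx2.1 against VIP and 6.99% for SOM against VIP. DESeq2 called 1 of the 59 for Nkx2.1 against SOM, namely Cycs, 4 for Nkx2.1 against VIP (Casp6, Mapk10, Ppif and Ripk1) and 3 for SOM against VIP (Casp6, Mapk10 and Ripk1). Casp6, an effector caspase, had 0, 0 and 19.0 CPM in Nkx2.1, 17.2, 0 and 9.10 CPM in SOM and no read in any VIP library. Of all genes DESeq2 tested, 8.88%, 13.0% and 4.6% were called in these comparisons, so the counts of both tests were near or below the shares over all genes. Of the 21 not tested, 9 had no read in any library.

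Of 18 other BCL-2 family genes 9 were tested, with medians of 0.22 for Nkx2.1 against SOM, -0.77 for Nkx2.1 against VIP and -0.48 for SOM against VIP on the log2 scale. Bid, the BH3-only gene that links death receptors to mitochondria, averaged 128 ± 75.2 CPM in Nkx2.1, 53.2 ± 13.5 CPM in SOM and 78.1 ± 68.1 CPM in VIP libraries, with 0 in VIP replicate 1. Bnip3l, a mitophagy receptor, averaged 48.0 ± 34.5, 113 ± 44.7 and 100.4 ± 16.7 CPM. Hrk, a BH3-only gene of neurons, averaged 0.246 ± 0.0882 CPM in Nkx2.1, 16.2 ± 24.9 CPM in SOM and 4.83 ± 8.23 CPM in VIP libraries, with SOM replicate 2 at 44.9 CPM and SOM replicate 3 at 0. Among genes with no read in any library were Bik, Pmaip1 (Noxa), Bcl2l10, Bcl2l14 and 3 Bcl2a1 copies. Reads without a unique alignment were not counted to genes, so the zeros of the Bcl2a1 copies cannot be read as absence of message.

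Of 14 genes acting downstream of the mitochondrion 13 were tested, with medians of 0.11, 0.088 and -0.22 in the same order of comparisons. Diablo, whose protein relieves the block that inhibitor of apoptosis proteins place on caspases, averaged 239 ± 132 CPM in Nkx2.1, 61.6 ± 19.9 CPM in SOM and 27.0 ± 31.1 CPM in VIP libraries. Every Nkx2.1 library had more Diablo than every SOM and every VIP library, with edgeR adjusted p-values of 0.686 and 0.314. Cycs, cytochrome c, averaged 0.462 ± 0.0473, 10.1 ± 6.38 and 2.69 ± 3.45 CPM, so that all 3 Nkx2.1 libraries lay below all SOM and VIP libraries except VIP replicate 1, which had 0.494 CPM. Cycs has many processed pseudogenes. Reads without a unique alignment, 64.5% to 68.0% of a table's total, stood in a summary entry and were not counted to genes. Cycs reads shared with pseudogenes may thus be missing, so its counts are uncertain.

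Of 12 p53, JNK and FOXO input genes 11 were tested, with medians of 0.35, 0.51 and 0.14. Mapk10, which encodes the JNK3 kinase of neurons, was the gene of these lists with the smallest p. It had 911, 423 and 348 CPM in Nkx2.1, 562, 907 and 844 CPM in SOM and 80.3, 81.2 and 151 CPM in VIP libraries. Every VIP library lay below every Nkx2.1 and SOM library, with a log2 difference of 2.43 for Nkx2.1 against VIP and 2.89 for SOM against VIP. The edgeR adjusted p-values of Mapk10 were 0.0950 and 0.0795, over the threshold, while those of DESeq2 were 0.00139 and 0.000296. Map3k12, the kinase DLK that acts upstream of JNK in neurons, averaged 244 ± 125 CPM in Nkx2.1, 191 ± 39.0 CPM in SOM and 172 ± 126 CPM in VIP libraries.

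Of 15 PI3K-AKT, ERK and calcineurin genes 13 were tested, with medians of -0.31, 0.15 and -0.11. Ppp3cb, a catalytic subunit of calcineurin, averaged 478 ± 323 CPM in Nkx2.1, 213 ± 41.0 CPM in SOM and 220.2 ± 24.0 CPM in VIP libraries. Pik3cb had no read in any library. It is among 461 consecutive protein-coding genes of the minus strand of chromosome 9, from 21294275 to 124476898, without a read in any of the 9 tables. The Bcl2a1d copy and the microglial marker Cx3cr1 are also among them, so the zeros of these genes cannot be read as absence of message. None of the 9 apoptosis members lies there.

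Of 10 death receptor genes only Cflar and Ripk1 were tested, and the other 8, with Fas, Fadd, Casp8 and Tnfrsf1a among them, did not pass the filter on low counts. Ripk1 had 49.3, 0 and 49.6 CPM in Nkx2.1, 72.5, 11.8 and 1.27 CPM in SOM and 0, 0.104 and 0.165 CPM in VIP libraries. The log2 difference was 8.29 for Nkx2.1 against VIP and 8.08 for SOM against VIP, with edgeR adjusted p-values of 0.248 and 0.568. Cflar, which encodes the caspase-8 inhibitor FLIP, averaged 0.807 ± 1.40, 3.96 ± 6.85 and 12.3 ± 18.2 CPM.

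All 11 genes of the outer membrane pores and mitochondrial dynamics were tested, with medians of -0.086, 0.018 and 0.11. Slc25a4, the adenine nucleotide carrier of the inner membrane, averaged 1672 ± 373 CPM in Nkx2.1, 1525 ± 139 CPM in SOM and 1651 ± 185 CPM in VIP libraries. Dnm1l, which drives mitochondrial fission, averaged 357 ± 207, 351 ± 172 and 229 ± 109 CPM. Ppif, cyclophilin D of the permeability transition pore, had 0.114, 0.0853 and 2.25 CPM in Nkx2.1, 0.428, 11.9 and 19.7 CPM in SOM and 119, 65.0 and 92.1 CPM in VIP libraries. Every VIP library lay above every SOM and Nkx2.1 library, and the log2 difference of Nkx2.1 against VIP was -6.79, with an adjusted p of 0.212 in edgeR and 0.000114 in DESeq2.

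**Figure D4:**
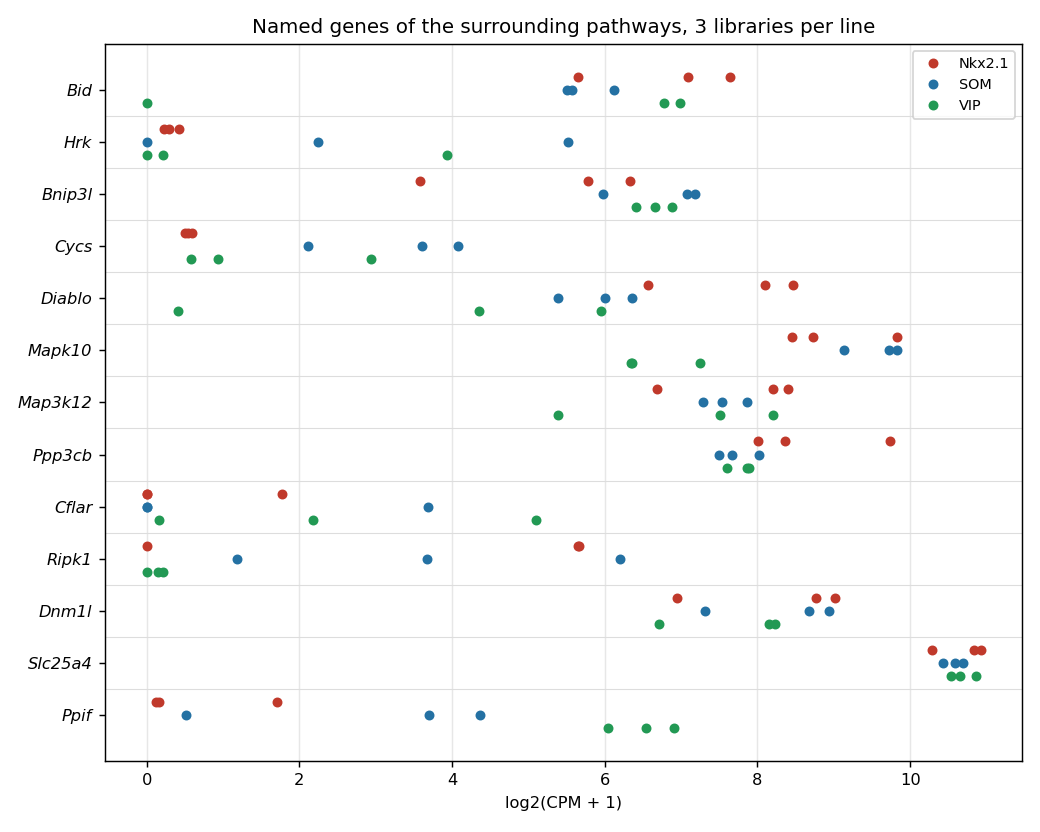
Level as log2(CPM + 1) in each library of 13 named genes of the surrounding pathways, 1 gene per line and 1 point per library, with Nkx2.1 in red, SOM in blue and VIP in green. The VIP libraries lie apart on the left for Mapk10 and on the right for Ppif, and most other genes overlap.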

How the data were processed

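RNA was counted in 9 libraries, 3 each of the Nkx2.1, SOM and VIP lines at postnatal day 5. The authors deposited raw counts by gene symbol in a table for each library. The submitters' processing notes name TopHat2 2.0.9, DESeq2 and mm10 without their roles. Which program counted the reads, with what annotation and strand setting, is not given in the sources used here. Beside 23319 gene symbols, 5 summary entries that stand for no gene took 83.6% to 85.2% of a table's total and stayed out of library sizes and tests. Among them, reads without a unique alignment took 64.5% to 68.0% of that total, and ambiguous reads 0.700% to 0.801%. No pair of libraries held identical counts.

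From these counts, all 9 libraries were fitted in R 4.3.3 with edgeR 4.0.16 (quasi-likelihood test, group as the only term, TMM, filterByExpr at a minimum count of 10, 10728 genes, 6 residual degrees of freedom, common biological coefficient of variation 1.40). P-values were Benjamini-Hochberg adjusted over all tested genes, with a threshold of 0.05. Log2 differences carry 95% intervals from the same test. Levels are CPM after TMM scaling as mean ± SD of 3 libraries, and levels between genes are also divided by the length of annotated exons (GENCODE vM21, GRCm38). The floor of 3 reads speaks to counting error alone: without molecular identifiers, reads are not independent molecules. DESeq2 1.42.0, other scalings and filters, a robust fit, pairwise fits, a replicate block and leaving out each library were the alternatives. The edgeR step was tested on simulated counts, with a pass condition only at a spread lower than in these data. It therefore does not show which differences can be found at the spread seen here. Promoter sequences are those of RefSeq (GRCm38.p6).

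The members and lists were chosen with earlier results of these data known. Named beside the 9 members were, per list, the 2 genes of highest mean CPM, the one of lowest p in the test of any difference and any gene past the threshold, 6 label genes, and the 3 genes whose pattern was most like that of the member of highest mean CPM. Other genes named, such as Foxo1, Foxo3, Pik3cb and those without reads, were chosen after their values were seen. Of the genes the rule names, 2 are not reported here.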

Additional observations from a re-analysis of the deposited data

How the results depend on the processing

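No member passed the threshold under any edgeR alternative, including each library left out (0 to 0 members in every comparison), and DESeq2 called 1 member for Nkx2.1 against SOM, 0 for Nkx2.1 against VIP and 1 for SOM against VIP (Bcl2l11) and 0 for any difference. Of 215 log2 differences of members under settings other than leaving out a library, 3 changed sign: Bcl2 for Nkx2.1 against SOM was -0.20 with the replicate block, and Bcl2l1 for Nkx2.1 against VIP was -0.069 both with the block and without a scaling factor. The cause was not tested. Genes called over all tested numbered 10 (7 higher, 3 lower) for Nkx2.1 against SOM, 33 (19 and 14) for Nkx2.1 against VIP, 8 (6 and 2) for SOM against VIP and 36 for any difference. DESeq2 called 942 (199 and 743), 1377 (463 and 914), 500 (329 and 171) and 855; fits of only the 2 groups compared called 5, 20 and 32; without a filter SOM against VIP had 21. Leaving out a library gave 0 (without SOM replicate 2) to 37 (without Nkx2.1 replicate 1), 12 to 48, 3 to 17 and 17 to 59. Without a library, differences of Bak1 changed sign in every comparison (lowest and highest -1.29 to 1.14, -1.69 to 0.14 and -1.68 to 0.28), as did Apaf1 (-0.67 to 1.74), Bcl2 (-6.70 to 4.15) and Bcl2l1 (-0.10 to 1.07) for Nkx2.1 against SOM, and Bbc3 (-0.85 to 0.38), Bcl2 (-8.37 to 0.13), Bcl2l11 (-2.15 to 2.13), Bcl2l1 (-0.62 to 0.48) and Casp9 (-0.42 to 1.39) for Nkx2.1 against VIP. Without TMM scaling and over the reads in all genes rather than in tested genes, CPM differed by up to 19.4% in Nkx2.1 replicate 1 and up to 8.01% in the others.

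With the replicate number as a block, 4, 11, 4 and 14 genes and 0 members were called. Libraries of the same number did not deviate together (correlations -0.048 to 0.068), and 2 of 9 correlated best with their own number. This check found no sign of pairing by number. With so wide a spread between libraries it cannot exclude pairing, and the labels do not say.

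Depth was at least 6484488 reads in genes. For counting error, the zeros of Bcl2, Apaf1 and Casp9 in Nkx2.1 replicate 2 lie below 0.256 CPM. The zero of Bcl2 in SOM replicate 2, the shallowest library, lies below 0.447 CPM. The width of the intervals comes with a spread between libraries of a coefficient of variation of 1.40.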
